A study of Bos taurus with 94 samples.

Results

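The glandular stomach of cattle was compared with the forestomach, using the 1 library labelled abomasum and the 4 libraries labelled rumen, rumen papillae, reticulum and omasum, out of 94 bovine RNA sequencing libraries. Genes were kept when their FPKM (a level scaled by transcript length and by the mapped fragments of the library) was 10 or more in the abomasum or in the forestomach mean. This rule kept 7837 of 24616 genes, of which 7833 were tested. The gene nearest the threshold on the inside had a larger value of 10.01 FPKM, and the nearest on the outside 9.996 FPKM. All 5 libraries are labelled as adult Hereford tissue, with no treatment and no animal named, so a p-value measures only the spread between these libraries, which are different tissues. The series covers tissues from the whole body and was built as a resource for reading genetic association results in this species.

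The abomasum is the true stomach of ruminants: its glandular mucosa of columnar cells secretes acid, digestive proenzymes and mucus. The rumen, reticulum and omasum lie upstream and are lined by a stratified squamous epithelium, which faces microbial fermentation and takes up short-chain fatty acids. Rumen papillae are the finger-like folds of the rumen lining, so 2 of the 4 forestomach libraries come from the same chamber. The deposited table gives Ensembl identifiers without symbols, so neither pepsinogens, proton pump subunits and mucins on the glandular side nor keratins and cornified envelope proteins on the squamous side could be looked up, and the tissue labels could not be checked against named markers. Instead, the genes are described by their levels in all 5 stomach libraries and by where else in the body they were expressed, with 2 identifiers given in each direction.

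The number of genes at 1 FPKM or more was 12791 in the abomasum, 12031 in the omasum, 10014 in the rumen papillae, 11508 in the rumen and 12206 in the reticulum, against a median of 12442 over all 94 libraries. FPKM summed to 708744 in the abomasum and to 772622 to 805916 in the forestomach libraries. The depth in reads is unknown, and the FPKM of abundant genes lowers that of the others. Over all 18031 genes tested the median log2 difference, abomasum minus forestomach on the log2(FPKM + 1) scale, was 0.24. It was 0.36 after scaling to equal totals and -0.01 with quantile normalization.

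The abomasum stood far from every forestomach library. Between the abomasum and a single forestomach library, 1220 (reticulum), 1222 (omasum), 1590 (rumen) and 2002 (rumen papillae) genes differed at least 4-fold on the FPKM + 1 scale, counting genes at 10 FPKM or more in either library. Between 2 forestomach libraries the number ran from 23 (rumen and reticulum) to 456 (omasum and rumen papillae). The smallest count with the abomasum was therefore larger than the largest within the forestomach. Spearman's rho over the tested genes was 0.78 to 0.84 between the abomasum and the forestomach libraries, and 0.89 to 0.97 within the forestomach. These are descriptions across genes of 1 library each, with no test.

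**Figure D1:**
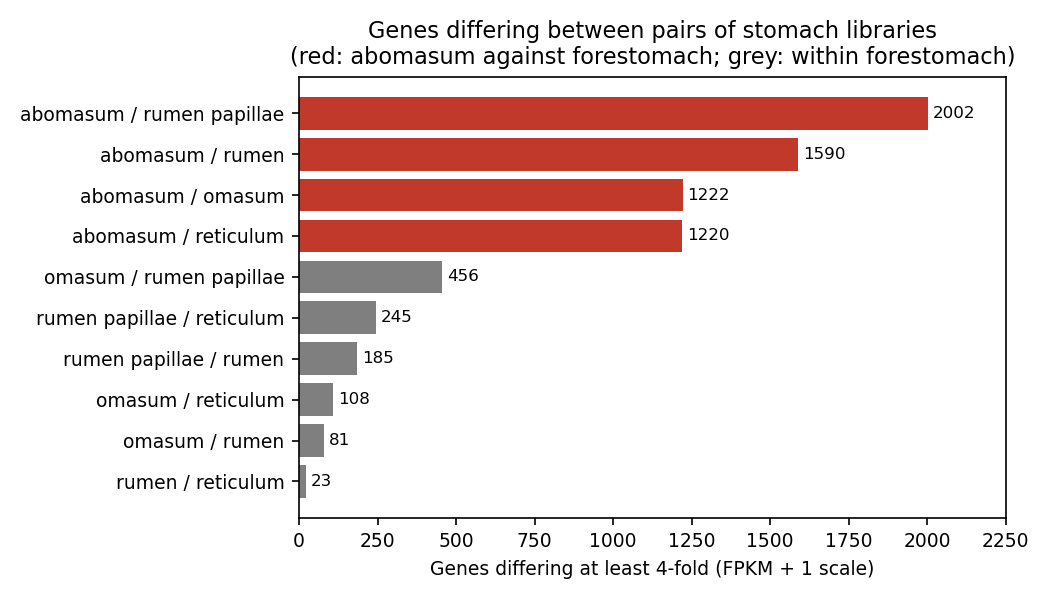
Number of genes that differed at least 4-fold (FPKM + 1 scale) between each pair of the 5 stomach libraries; red bars set the abomasum against a forestomach library, grey bars set 2 forestomach libraries against each other. The red bars run from 1220 to 2002 and the grey bars from 23 to 456.

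Of the tested genes kept by the rule, 856 were called higher in the abomasum and 492 lower by limma with Benjamini-Hochberg adjustment, at an adjusted p below 0.05 and a log2 difference of 1 or more in size. Over all genes tested, 11.1% were called, 8.1% higher and 2.96% lower. In each of these 1348 genes the abomasum lay outside the range of the 4 forestomach libraries. The calling rule sets this, as a call needs a difference that is large against the spread of those libraries. Over all genes tested, 45.1% lay above and 13.9% below that range. The level rule itself favours genes that differ: the 2301 genes that passed in the abomasum only gave 603 of the higher calls, and the 687 that passed in the forestomach mean only gave 208 of the lower calls. Among the 4845 genes at 10 FPKM or more on both sides, 253 were called higher and 284 lower, so the excess of higher calls was not found there.

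Many of the differences were large. On the log2(FPKM + 1) scale, 217 of the higher and 117 of the lower genes differed by at least 4, and 31 and 22 by at least 8. In 48 of the higher genes all 4 forestomach libraries were listed at 0, and 53 of the lower genes were listed at 0 in the abomasum. The spread in this test comes from the 4 forestomach libraries, and the lone abomasum library is assumed to vary like them; a permutation of 1 library against 4 cannot give a one-sided p below 0.2. The counts depended on single forestomach libraries and on scaling: without the rumen 297 genes were called higher and 153 lower, without the reticulum 334 and 213, with the spread taken from all 94 libraries 536 and 242, and with quantile normalization 746 and 703.

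**Figure D2:**
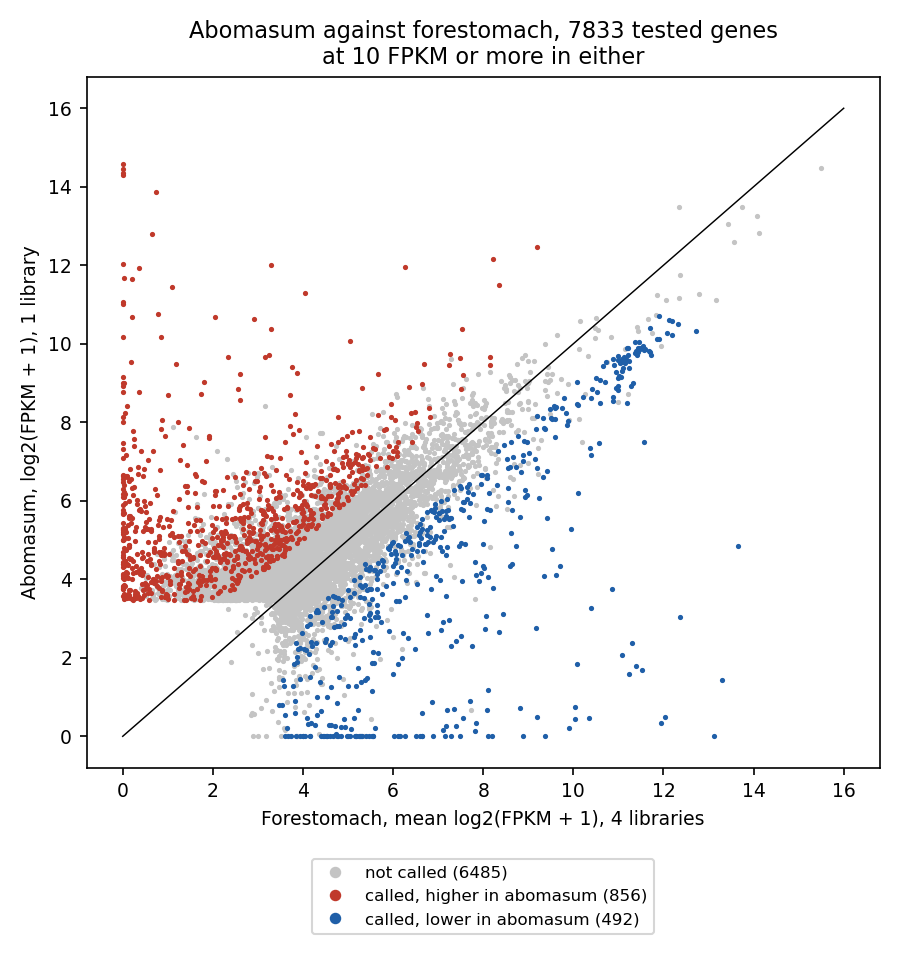
Level of the 7833 tested genes in the abomasum (vertical axis, 1 library) against the mean of the 4 forestomach libraries (horizontal axis), both as log2(FPKM + 1); the line marks equal levels. The 856 genes called higher in the abomasum (red) include many on the left edge, at or near 0 in the forestomach. The 492 called lower (blue) include abundant genes just below the line.

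The leading genes of the abomasum were at or near 0 in the forestomach. ENSBTAG00000012949 was at 24328 FPKM in the abomasum, or 3.43% of all FPKM of that library, and was listed at 0 in the omasum, rumen papillae, rumen and reticulum (limma adjusted p = 2.04e-05). ENSBTAG00000017199 was at 22340 FPKM, or 3.15%, and was likewise listed at 0 in all 4 forestomach libraries (limma adjusted p = 2.2e-05). Since the forestomach values of both genes have no spread, these p-values rest on the spread that limma takes from other genes. The 20 genes with the largest differences toward the abomasum ran from 508 to 24328 FPKM there, with a median of 3001. None of them was above 3.56 FPKM in any forestomach library, and 10 were listed at 0 in all 4. The 4 most abundant genes of the abomasum library, ranked by level alone, together held 12.7% of its FPKM. The same share, from each library's own 4 most abundant genes, was 10.66% in the omasum and 14.95% in the rumen papillae. It was 12.12% in the rumen and 11.51% in the reticulum, so the abomasum share lay within the forestomach range.

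The leading genes of the forestomach showed the mirror pattern. ENSBTAG00000036116 was at 11729 FPKM in the omasum, 8926 in the rumen papillae, 7533 in the rumen and 7851 in the reticulum (mean 9009 ± 1908, SD, n = 4), and was listed at 0 in the abomasum (limma adjusted p = 0.000132). ENSBTAG00000006806 was at 6975 FPKM in the omasum, 11382 in the rumen papillae, 12506 in the rumen and 10308 in the reticulum, and at 1.69 in the abomasum. Its log2 difference was -11.87 ± 0.39 (SE; limma adjusted p = 0.000399). The first of these genes was highest in the omasum and the second lowest there, while both were higher in every forestomach library than in the abomasum. The 20 genes with the largest differences toward the forestomach ran from 255 to 16871 FPKM over its libraries, and did not pass 27.8 FPKM in the abomasum, where 4 were listed at 0. These genes were picked for large differences outside the forestomach range, so their distance from the abomasum is a description. Under each of 12 settings, the reported one included, 19 of the 20 higher and 18 of the 20 lower genes were called; in a further setting, which left out genes listed at 0 throughout the forestomach, 10 of the 20 higher genes were not tested.

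**Figure D3:**
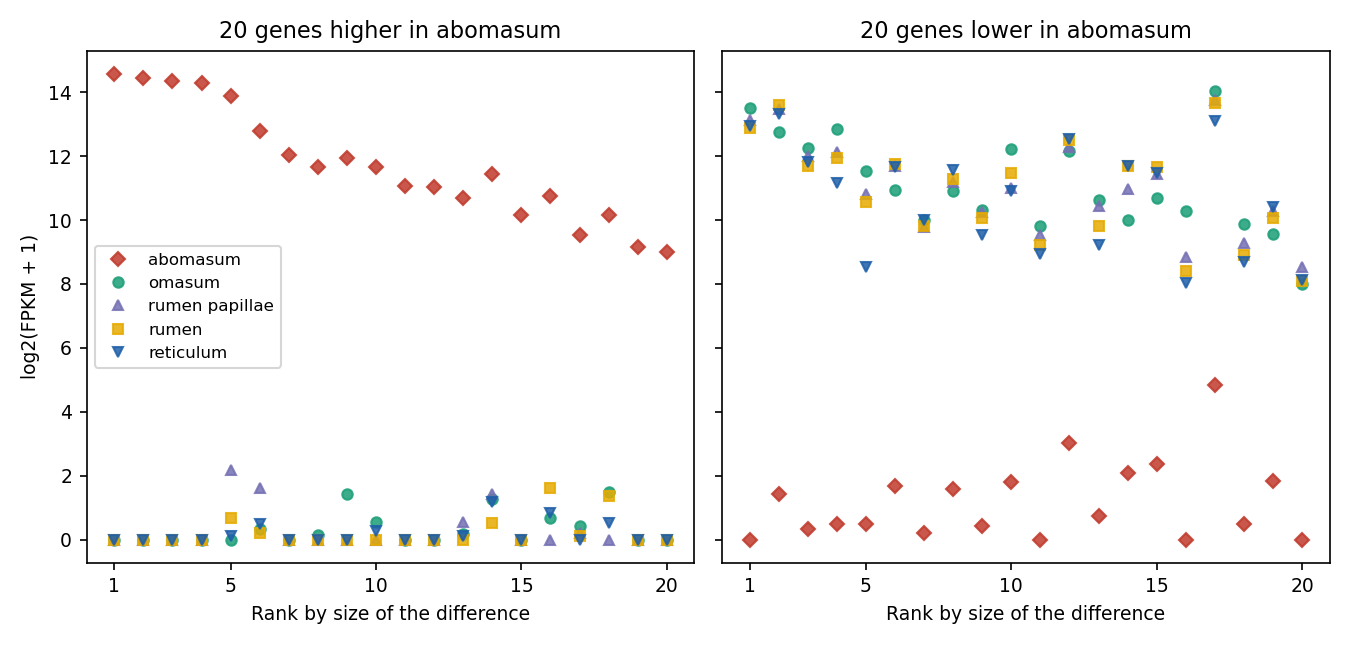
Levels, as log2(FPKM + 1), of the 20 genes with the largest difference in each direction in the abomasum (red diamonds) and the 4 forestomach libraries; genes are ordered by rank of the difference. The genes were chosen to lie outside the forestomach range, so the groups do not overlap by choice; the 20 higher genes stay at or below 3.56 FPKM in every forestomach library.

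These leading genes were then followed through the 89 libraries that the comparison had not used. ENSBTAG00000012949 was at 10 FPKM or more in 2 of them, bladder (355 FPKM) and esophagus (64.3 FPKM), and ENSBTAG00000017199 in the same 2 (66.4 and 64.8 FPKM). Whether these levels belong to bladder and esophagus, or to a mixed sample or carry-over between libraries, was not tested. The 2 genes were listed at 0 in 71 and 72 of the 89. As a group, the 20 abomasum genes averaged 11.73 on the log2(FPKM + 1) scale in the abomasum, 0.17 to 0.33 in the forestomach libraries and 1.17 in the median of the other libraries. The library labelled bladder came next to the abomasum, at 9.48, with 19 of the 20 genes at 10 FPKM or more. Its closest library over all tested genes was the urethra (Spearman's rho 0.91), and the abomasum ranked 15 in that order (0.87). Nasal mucosa (4.20) and descending colon (4.19) followed, with 8 of the 20 genes at 10 FPKM or more in each.

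The 20 forestomach genes had a different distribution. Their mean level was 10.68 to 11.12 in the forestomach libraries on the log2(FPKM + 1) scale, 1.19 in the abomasum and 0.95 in the median of the other libraries. The lower tongue (9.68), esophagus (9.66), superficial tongue (9.55) and cancer eye (8.53) carried most of them, and the esophagus had all 20 at 10 FPKM or more. The tongue and the esophagus are lined by stratified squamous epithelium, as is the forestomach. ENSBTAG00000006806 was at 11403 FPKM in the cancer eye, 2369 in the lower tongue and 457 in the esophagus. ENSBTAG00000036116 was instead at 732 FPKM in the esophagus and 617 in the caecum, and reached 23 FPKM in the lower tongue, so the 2 leading forestomach genes did not share a distribution outside the stomach.

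**Figure D4:**
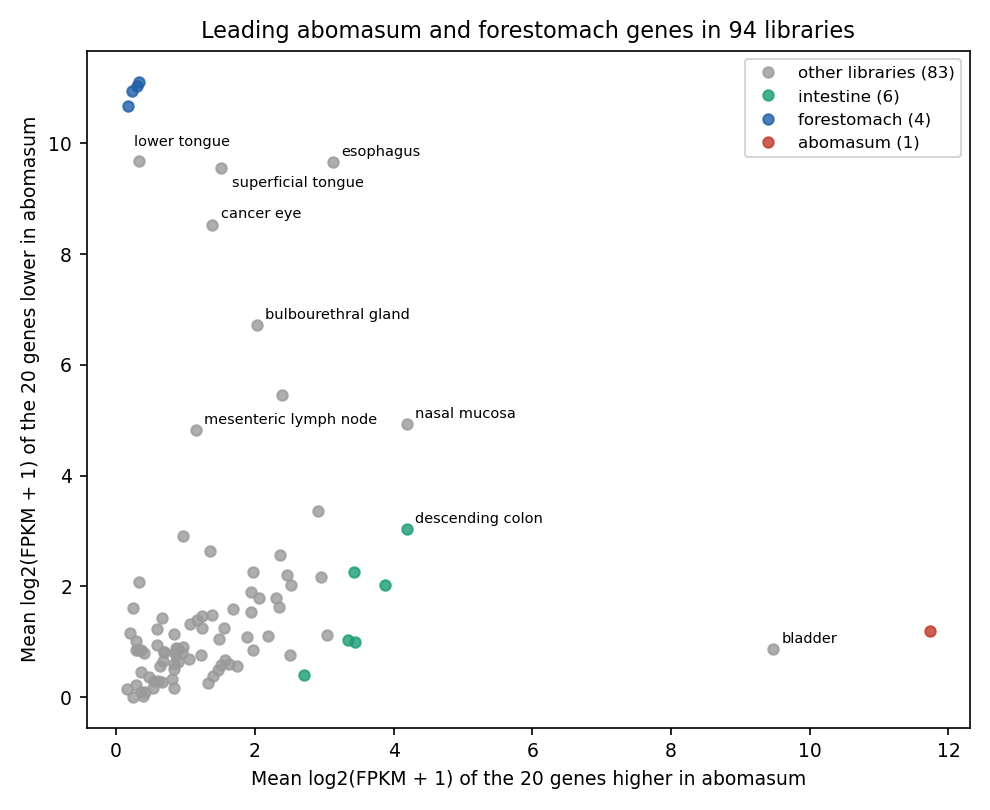
Mean log2(FPKM + 1) of the 20 genes higher in the abomasum (horizontal axis) and of the 20 genes lower in the abomasum (vertical axis) in all 94 libraries, 1 point a library. The forestomach libraries (blue) sit at the top left beside tongue and esophagus, and the library labelled bladder (9.48) is the nearest to the abomasum (11.73) on the horizontal axis.

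The whole abomasum profile was closest to the intestine, and the profiles of omasum, rumen and reticulum to one another and then to the esophagus. The libraries with the highest Spearman correlation with the abomasum were duodenum (0.89), descending colon (0.89) and ascending colon (0.88). Next came the ileum (0.870), the library labelled bladder (0.868) and the caecum (0.861). Omasum, rumen and reticulum each had the other 2 as their closest pair (0.95 to 0.97), followed by the esophagus (0.92 to 0.93). For all 3 the esophagus was closer than the rumen papillae (0.89 to 0.92), and for the omasum the superficial tongue (0.90) was closer too. The rumen papillae were closest to rumen (0.92), reticulum (0.91) and omasum (0.89), with the esophagus next (0.87).

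To describe these likenesses without gene names, sets of genes that mark other tissues were drawn from the 89 other libraries alone. A gene entered a set when its median level in the tissue was at least 10 FPKM and at least 4-fold above the 90th percentile of the remaining libraries on the FPKM + 1 scale. The sets were not limited to genes kept by the level rule, so their counts are not parts of the 856 and 492 calls. Of 160 genes marking the intestine (6 libraries of small and large intestine), 81 (50.6%) were called higher in the abomasum and 7 (4.4%) lower by limma. Over all genes tested these shares were 8.1% and 2.96%. Of the 81, 61 were among the genes kept by the level rule. The median log2 difference of the set was 2.01, against 0.24 over all genes tested. At 10 FPKM or more were 75 of the 160 in the abomasum, 19 in the omasum, 15 in the rumen papillae, 16 in the rumen and 17 in the reticulum. On the log2(FPKM + 1) scale their mean level was 3.46 in the abomasum, 1.03 to 1.14 in the forestomach and 6.01 to 6.34 in the intestine, so the abomasum carried part of the intestinal set at an intermediate level. In a set drawn from the small intestine alone, 69 of 168 genes (41.1%) were called higher and 3 lower. In a set from the large intestine alone these counts were 63 of 140 (45%) and 6. Both sets shared 94 genes, 56% of the first set and 67.1% of the second.

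The squamous side was the reverse. Of 259 genes marking esophagus and tongue (3 libraries), 98 (37.8%) were called lower in the abomasum and 2 (0.77%) higher, with a median log2 difference of -1.53. Over all genes tested, 2.96% were called lower and 8.1% higher. Of the 98, 95 were among the genes kept by the level rule. At 10 FPKM or more were 39 of the 259 in the abomasum, 130 in the omasum, 126 in the rumen papillae, 127 in the rumen and 121 in the reticulum. Their mean level was 1.40 in the abomasum and 3.68 to 4.04 in the forestomach on the log2(FPKM + 1) scale. It was 5.67 in the esophagus and 7.36 and 7.37 in the tongue libraries. This set holds 18 of the 20 leading forestomach genes, so it is not separate evidence for them. The number called lower fell to 51 without the rumen and to 65 without the reticulum.

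Among the sets marking other tissues, some had more genes called than the genes tested as a whole and some did not. Over all genes tested, 8.1% were called higher and 2.96% lower. The mean log2(FPKM + 1) of 224 genes marking lymphoid tissues and blood cells was 2.12 in the abomasum and 0.43 to 1.02 in the forestomach. Of these genes, 57 (25.4%) were called higher in the abomasum and 0 lower by limma (also 0 lower at an unadjusted p below 0.05). Of these 57, 13 were among the genes kept by the level rule. The count of 57 depended on the setting: it was 34 with a pseudocount of 0.1, 29 with quantile normalization, 19 without the rumen, 29 without the reticulum and 7 with the spread from all libraries. In bulk tissue, more cells of a type and more RNA per cell cannot be told apart, and the part of such cells in the other differences was not tested. Of 114 genes marking the salivary gland (1 library), another secretory organ of the gut, 37 (32.5%) were called higher and 9 (7.89%) lower. Of 205 genes marking skeletal muscle 8 (3.9%) were called higher and 4 (1.95%) lower, and of 444 marking brain 25 (5.63%) and 13 (2.93%). Both higher shares were below the 8.1% over all genes tested. Of 394 genes marking liver 62 were called higher (15.7%) and 16 lower, and of 339 marking kidney 38 (11.2%) and 16. The median log2 difference of both sets was 0, as many of their genes were listed at 0 (167 of the liver set and 148 of the kidney set in the abomasum). Among genes at 1 FPKM or more in at least 1 of the 5 libraries the medians were 1.01 (liver) and 0.38 (kidney), against 0.53 over all genes so filtered. Fewer of the genes called higher were among those kept by the level rule: 26 (salivary gland), 2 (skeletal muscle), 8 (brain), 36 (liver) and 24 (kidney).

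Genes of muscular tissues were lowest in the rumen papillae, where the mean over all genes was also lowest. Mean log2(FPKM + 1) over all genes tested was 2.13 there, 2.41 to 2.54 in the other forestomach libraries and 2.80 in the abomasum. The rumen papillae library listed 12794 genes at 0, against 8866 to 10064 in the other stomach libraries. A set of 293 genes was drawn from tissues rich in smooth muscle (myometrium, aorta and ureter), with a gap of at least 2-fold above the 75th percentile of the remaining libraries, a wider rule used because the stricter one left few genes. Their mean level was 4.22 in the omasum, 3.93 in the reticulum, 3.71 in the rumen, 3.46 in the abomasum and 2.24 in the rumen papillae on the log2(FPKM + 1) scale. The abomasum lay within the range of the forestomach libraries, and limma called 4 of these genes (1.37%) higher and 5 (1.71%) lower. Both shares were below the 8.1% and 2.96% over all genes tested. At 10 FPKM or more were 170 of the 293 in the omasum and 73 in the rumen papillae.

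**Figure D5:**
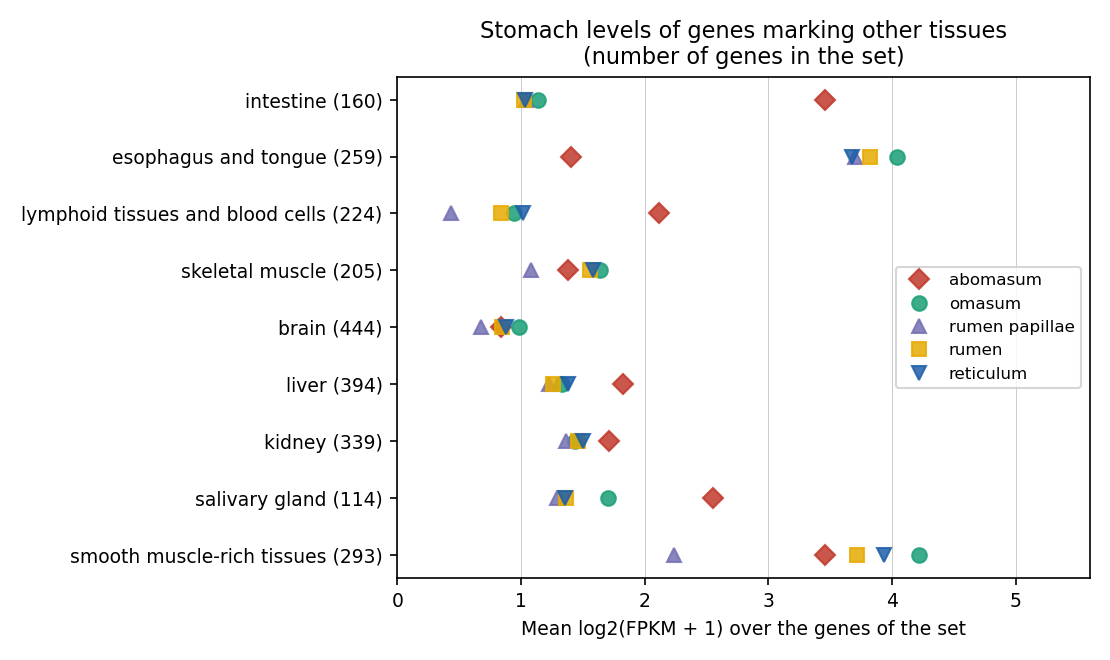
Mean level, as log2(FPKM + 1), in the abomasum (red diamonds) and the 4 forestomach libraries of gene sets drawn from other tissues, with the number of genes in each set. The abomasum stands above the forestomach for the intestinal set (3.46 against 1.03 to 1.14) and below it for the esophagus and tongue set (1.40 against 3.68 to 4.04), and the rumen papillae stand lowest for the smooth muscle-rich set (2.24). Not every set is shown, and the set marking the library labelled bladder (abomasum 4.77, forestomach 0.41 to 0.60) is left out.

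The forestomach libraries were not alike in every gene. Of the genes kept by the rule, 623 had at least a 4-fold range on the FPKM + 1 scale over the 4, and in 472 of them (75.8%) the rumen papillae lay farthest from the median, below it in 460. The omasum was the farthest library in 123, above the median in 86. Of the 460 genes low in the papillae, 78 (17%) belonged to the smooth muscle-rich set, which is 26.6% of that set. Of all 7833 tested genes kept by the rule, 171 belonged to it. Of the 86 genes high in the omasum, 14 (16.3%) did. The gene with the widest range was at 3570 FPKM in the omasum, 1667 in the rumen, 441 in the reticulum, 121 in the abomasum and 9.68 in the rumen papillae, and belongs to the smooth muscle-rich set. Differences among the forestomach libraries were not tested, as each is 1 library. Without the rumen papillae, 670 genes were called higher in the abomasum and 346 lower, and the median log2 difference over all genes tested was 0.15.

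Outside the stomach, the called genes ranged from narrow to ubiquitous. Of the 856 higher genes, 12 reached 10 FPKM in none of the other 89 libraries and 102 (11.9%) in 5 or fewer. For the 492 lower genes these counts were 5 and 38 (7.72%), and for the 6485 genes not called they were 21 and 172 (2.65%). At 20 FPKM the higher genes in 5 or fewer other libraries were 265 (31.0%), while the lower genes (82, 16.7%) were no longer above the genes not called (1111, 17.1%). Without the library labelled bladder, 16 of the higher genes reached 10 FPKM in no other library. The abomasum was the highest of all 94 libraries in 177 of the higher genes, and a forestomach library was the highest in 107 of the lower genes. Narrow genes differed more: the median log2 difference was 3.86 for the 102 higher genes found in 5 or fewer other libraries and 1.81 for the 336 found in 45 or more. For the lower genes these medians were -4.52 (38 genes) and -1.63 (291 genes). The level rule limits these comparisons of breadth and size. In the abomasum only, 603 of the 856 higher genes passed it, and in the forestomach mean only, 208 of the 492 lower genes. How far the rule sets their breadth or the size of their differences was not tested. At 10 FPKM or more, the higher genes were most often found in descending colon (74.6%), ascending colon (71.5%), ileum (69.7%) and duodenum (69.2%). Genes not called were found there more often (84.2%, 79.7%, 84.6% and 74.7%), and in 0 of the 89 libraries did the share of higher genes exceed that of genes not called. The lower genes were most often found in esophagus (91.7%), superficial tongue (86.4%), cancer eye (85.8%) and lower tongue (83.3%), against 72.1%, 65.5%, 71.8% and 57.6% of the genes not called. In 17 of the 89 libraries the share of lower genes exceeded that of genes not called. These included the bulbourethral gland (80.1% against 69.9%), the anterior eye (77.0% against 70.3%), the choroid plexus (45.7% against 38.4%) and, by small margins, several limb muscles.

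Some of the lower genes were found in every other library. Of the 492, 151 (30.7%) were at 10 FPKM or more in all 89 other libraries. So were 45 of the 856 higher genes (5.26%) and 1163 of the 6485 genes not called. The 151 had a median of 774 FPKM in the forestomach mean and 275 FPKM in the abomasum, and their log2 differences lay close together, with a median of -1.56 and quartiles of -1.79 and -1.34; the call itself needs a difference of at least 1 in size. Their mean level was 9.42 to 9.53 on the log2(FPKM + 1) scale in the 4 forestomach libraries and 7.85 in the abomasum, with a median of 8.47 over the other libraries. One library of the other 89, labelled ipsilateral isthmus, lay above the highest forestomach library (9.81), and 24 lay below the abomasum. As the 151 genes were chosen for being lower in the abomasum than in the forestomach, these positions are partly set by that choice. They are part of the 291 lower genes found in 45 or more other libraries, whose median log2 difference was -1.63. Fewer of the 151 were called without the rumen (29), without the reticulum (47), with the spread from all 94 libraries (34) and with quantile normalization (90, median -1.26). All 151 kept their sign in the 12 other settings, but most of these settings could not turn it. Changes of filter, trend or spread leave the difference as it is. Each called gene also lay below all 4 forestomach libraries, so leaving 1 out keeps the sign.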

How the data were processed

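RNA sequencing levels of 94 Hereford tissue libraries were read from 1 table. The authors deposited FPKM values, per the file headers and name, and used HISAT2 and StringTie with the build UMD3.1, per the submitters' processing notes. Tool versions and the annotation used are not given in the sources here, and depth is unknown. No gene symbol could be matched (0 of 24616 Ensembl identifiers), so the gene lists prepared for gastric and squamous cell types were not used.

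Values were analysed as log2(FPKM + 1), which understates folds of low genes. Genes at 1 FPKM or more in at least 3 of 94 libraries entered the fit, made in R 4.3.3 using limma 3.58.1 (trend, two-sided, Benjamini-Hochberg adjustment over 18031 genes). The fit used the 5 stomach libraries only. It was also run on simulated data that gave the abomasum the spread of the forestomach libraries. That run therefore cannot show whether the abomasum varies like them. Descriptions used Python 3.11.15, numpy 2.4.6 and pandas 2.3.3. The named identifiers are the 2 in each direction with the largest difference among called genes outside the forestomach range; the 20 leading genes follow the same rule. The genes, sets and tests were chosen with earlier results of these data known, and the tissue-marking sets after gene names proved missing. Alternatives were a pseudocount of 0.1, other filters and scalings, no trend, a group-means model and each forestomach library left out.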

Additional observations from a re-analysis of the deposited data

Results flagged for a closer look

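In all, 4 values stood apart among the forestomach libraries, out of 28 quantities checked for 1 library far from the other 3. By chance about 1 in 20 is flagged. The levels of ENSBTAG00000012949 and ENSBTAG00000017199 were among the 28 but have no spread there, so they could not be flagged. Some of the gene sets checked share genes, so the checks are not independent. The FPKM total of the reticulum was the lowest (772622), the intestinal set was highest in the omasum (1.14), and the skeletal muscle set (1.08) and the adipose set (1.99) were lowest in the rumen papillae, the last 3 as mean log2(FPKM + 1).

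Libraries outside the comparison carried many of its leading genes. The library labelled bladder had 19 of the 20 leading abomasum genes at 10 FPKM or more. Of the 20 leading forestomach genes, the esophagus had 20 at that level, the superficial tongue 18, the lower tongue 18, the cancer eye 16, the bulbourethral gland 14, the mesenteric lymph node 14, the anterior eye 13 and the nasal mucosa 11. In the forestomach libraries none of the abomasum genes, and in the abomasum 1 of the forestomach genes, was at that level.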

How the results depend on the processing

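The 1348 genes called, 856 higher and 492 lower, were 450 to 1086 with 1 forestomach library left out, 297 to 670 of them higher and 153 to 489 lower. The lowest counts came without the rumen and the next without the reticulum (547, with 334 higher and 213 lower). The group-means model gave 778, with 536 higher and 242 lower, and a pseudocount of 0.1 gave 536 higher. Leaving out genes listed at 0 throughout the forestomach, chosen after seeing the data, gave 1601. Calls shared by the reported setting and every alternative tried except this last one numbered 161 higher and 81 lower. Intestinal genes called higher ranged from 59 to 84 over all settings. Esophagus and tongue genes called lower were 51 to 94 with a library left out, lowest without the rumen and 65 without the reticulum. Lymphoid genes called higher were 34 with a pseudocount of 0.1, 29 with quantile normalization, 7 in the group-means model and 19 to 52 with a library left out (19 without the rumen, 29 without the reticulum). The median number of genes apart between the abomasum and a forestomach library, 1406 at 4-fold, was 3484 at 2-fold and 684.5 at 8-fold, and within the forestomach it was 146.5, 704.5 and 68. Higher genes in 5 or fewer other libraries were 102 at 10 FPKM, 11 at 1 FPKM and 265 at 20 FPKM, and lower genes 38, 2 and 82. The named identifiers kept their direction and call in the settings where they could be tested. The cause of these shifts was not tested, beyond fewer libraries being fitted where one was left out. No paired analysis was possible because the labels give no replicate numbers. Unknown depth limits what can be said of genes listed at 0.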

Other observations

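In all, 8 genes at 1000 FPKM or more in the abomasum were listed at 0 in all 4 forestomach libraries. In the esophagus library these 8 genes lay at 0.0946% to 0.29% of their abomasum level, with a median of 0.231%, which is 1.08 to 64.8 FPKM. In the library labelled bladder the same genes lay at 0.297% to 331% of it, with a median of 17.4%. The ratio to the abomasum thus varied much less over the 8 genes in the esophagus than in the bladder library. Carry-over between libraries, or a mixed sample in the library labelled bladder, was not tested.

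A set of 115 genes marked the library labelled bladder among the 89 other libraries. Of these, 66 (57.4%) were called higher in the abomasum by limma, against 8.1% of all genes tested. The same fit called 0 lower (also 0 lower at an unadjusted p below 0.05), and the median log2 difference was 3.80. Of the 66, 57 were among the genes kept by the level rule. The set holds 16 of the 20 leading abomasum genes, so it is not separate evidence for them. Of these 115 genes, 28 (24.3%) were also in the intestinal set, which is 17.5% of that set. The ipsilateral isthmus library led the other 89 in 106 of the 492 lower genes, 81 of them among the 151 ubiquitous genes.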
